A study of Mus musculus with 13 samples.

Results

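A set of 38 genes that hepatocytes, the parenchymal cells of the liver, transcribe were followed through 13 RNA-seq libraries of sorted mouse natural killer (NK) cells. The genes were chosen by name and all 38 were found among the 54532 genes of the count files. NK cells are innate lymphocytes that kill infected or transformed cells. The liver holds a resident population (LrNK), and conventional NK cells (cNK) circulate through blood and spleen. The series asked how maturation of LrNK cells differs in mice without CD8+ T cells. Every sample came from C57BL/6J mice of 8 to 10 weeks with the genotype wild type (WT here) or CD8KO. There were 4 LrNK WT, 3 LrNK CD8KO, 3 cNK WT and 3 cNK CD8KO libraries. The labels give liver lymphocytes as the source of LrNK cells and splenocytes as the source of cNK cells, so cell type and organ cannot be told apart in any comparison between them. The cells were sorted by flow cytometry, and the sources used here do not give the antibodies. The labels do not say whether a library came from 1 animal or a pool.

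Hepatocytes make most of the proteins of blood plasma and carry out nitrogen disposal, glucose output and drug oxidation. Their transcripts for albumin, apolipoproteins and fibrinogen are among the most abundant RNAs of the liver. Much of the hepatocyte programme is driven by the transcription factors HNF1, HNF4 and C/EBP, which bind close to the start of these genes. In bulk RNA, fewer hepatocytes and less RNA per hepatocyte cannot be told apart, and neither can whole cells and free RNA.

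The promoters of 4 members are shown because they carry the HNF1 core GTTAAT, a sequence of liver promoters, and had the highest mean levels of the members that do. Each is a RefSeq sequence of GRCm38.p6, 5′ to 3′ on the strand of the gene, with the core in capitals. It runs from 250 bases before the RefSeq start of transcription to 50 after it. GENCODE M21 begins these genes elsewhere, Alb for example at 90460897, so the distances below hold for the RefSeq start only. Alb encodes albumin and lies at chr5:90460620-90460919 on the plus strand, with the site beginning 32 bases before the start. Fabp1 encodes the liver fatty-acid binding protein and lies at chr6:71199629-71199928 on the plus strand, with the site 107 bases before the start. Pck1 encodes the rate-limiting enzyme of gluconeogenesis and lies at chr2:173152823-173153122 on the plus strand, with the site read on the other strand 192 bases before the start. Serpina1b encodes an alpha-1-antitrypsin, an inhibitor of neutrophil elastase, and lies at chr12:103738140-103738439 on the minus strand, with the site 26 bases before the start.
Alb: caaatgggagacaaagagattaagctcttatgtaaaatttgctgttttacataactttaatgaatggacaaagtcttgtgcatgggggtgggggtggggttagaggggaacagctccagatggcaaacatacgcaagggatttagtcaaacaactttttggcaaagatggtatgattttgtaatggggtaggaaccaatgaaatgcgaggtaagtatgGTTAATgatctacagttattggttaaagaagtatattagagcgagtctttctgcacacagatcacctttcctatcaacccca
Fabp1: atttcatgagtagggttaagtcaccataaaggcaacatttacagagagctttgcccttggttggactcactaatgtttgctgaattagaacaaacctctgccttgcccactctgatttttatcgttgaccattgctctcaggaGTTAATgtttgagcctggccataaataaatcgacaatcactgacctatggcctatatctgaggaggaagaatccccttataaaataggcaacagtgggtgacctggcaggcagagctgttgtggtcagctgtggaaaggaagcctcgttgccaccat
Pck1: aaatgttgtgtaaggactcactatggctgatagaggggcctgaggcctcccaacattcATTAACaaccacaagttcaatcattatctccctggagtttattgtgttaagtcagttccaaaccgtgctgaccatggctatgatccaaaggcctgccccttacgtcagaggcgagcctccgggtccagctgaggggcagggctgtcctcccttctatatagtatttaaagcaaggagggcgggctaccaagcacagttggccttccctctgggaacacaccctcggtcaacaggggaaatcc
Serpina1b: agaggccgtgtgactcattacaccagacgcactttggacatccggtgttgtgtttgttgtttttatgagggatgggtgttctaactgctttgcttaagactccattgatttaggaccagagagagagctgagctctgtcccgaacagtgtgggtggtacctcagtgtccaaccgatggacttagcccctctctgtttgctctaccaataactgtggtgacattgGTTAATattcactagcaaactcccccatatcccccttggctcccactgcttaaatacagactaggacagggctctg

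Promoters were found for 29 of the 38 members, 31 sequences in all. The HNF1 core GTTAAT, searched on both strands, was in 10 of the 31 (32.3%) against 7.1% of the 32851 promoters of the same length in the table. The genes were Alb, F2, Fabp1, Fga, Fgb, Gc, Pck1, Serpina1a, Serpina1b and Vtn. The C/EBP letters TTGCNNAA were in 12 (38.7%) against 10.8%, and the TATA box TATAAA in 9 (29%) against 13.6%. The HNF4 letters CAAAGTCCA were in 1, that of Cyp3a11 (3.23%), against 0.475%. The full palindromic HNF1 site, which includes the core, and the C/EBP letters TTGCGCAA, which TTGCNNAA includes, were in none, against 0.00913% and 0.183%. These are matches of letters and show no binding.

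Before the members are compared, 4 facts of the libraries bear on them. Libraries held 30578631 to 47655853 gene counts in LrNK and 48600875 to 72716020 in cNK. LrNK WT libraries 2 and 4 agreed closely (chi-square per degree of freedom 3.04), as did LrNK CD8KO libraries 2 and 3 (2.67), against 196 to 283 for other LrNK pairs, although neither pair agreed to within counting error. Each pair was summed to 1 sample, which left n = 3, 2, 3 and 3 samples, and nothing shows that these came from separate animals, so the tests measure the spread between samples only. LrNK WT libraries 1 and 3 and LrNK CD8KO library 1 had 13917 to 15797 detected genes, whereas the other 10 had 19896 to 22921. The libraries labelled CD8KO were not low in Cd8a, the targeted gene by their label: in CPM, counts scaled to a library total of 1000000, it was at 41.6 to 45.1 in LrNK CD8KO and 18.5 to 22.4 in LrNK WT, and at 85.9 to 109 in cNK CD8KO and 0.561 to 0.578 in cNK WT. The count files alone cannot say whether the deleted part is the one counted, so CD8KO is used below as a label. The NK markers went with the sort: Itga1 (CD49a, of resident NK cells) was at 136 to 369 CPM in LrNK and 10.0 to 19.3 in cNK, and Eomes, a factor of conventional NK cells, at 0.494 to 10.3 and 640 to 704.

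The 38 members together took 248.9, 82.1, 201.0 and 82.2 CPM in LrNK WT libraries 1 to 4 and 438.9, 184.9 and 193.7 CPM in LrNK CD8KO libraries 1 to 3. In cNK they took 5.11, 4.98 and 6.33 CPM in WT libraries 1 to 3 and 6.40, 7.42 and 7.20 CPM in CD8KO libraries 1 to 3. Every LrNK library was above every cNK library, the lowest LrNK value being 82.1 CPM and the highest cNK value 7.42 CPM. As a share of all counts the lowest LrNK value was 0.00821%, with an exact binomial 95% interval of 0.00794 to 0.00848%. The highest, in LrNK CD8KO library 1, was 0.0439%, with an interval of 0.0432 to 0.0446%. These intervals cover counting error only. The 3 LrNK libraries with few detected genes held the 3 highest sums, and the part of that difference between libraries in the sums was not tested.

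A list of members also made by blood cells held 4: Hp (granulocytes and monocytes), and Arg1, Ass1 and Trf (macrophages). Apoc1, which macrophages also make, was not on that list and was at 0.698 to 7.27 CPM in LrNK. Without these 4 the sum of the other 34 was 159.5, 51.4, 120.1 and 52.7 CPM in LrNK WT libraries 1 to 4 and 149.0, 69.9 and 71.3 CPM in LrNK CD8KO libraries 1 to 3. In cNK libraries it lay between 2.51 and 3.77 CPM for WT and between 2.86 and 3.35 CPM for CD8KO. The 4 made up 35.9 to 40.2% of the sum in LrNK WT and 62.2 to 66.1% in LrNK CD8KO, without overlap. With them the mean was 177.3 ± 85.9 CPM (SD, n = 3 samples) in LrNK WT and 313.9 ± 176.7 (SD, n = 2) in LrNK CD8KO. Without them it was 110.5 ± 54.4 and 109.8 ± 55.4.

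**Figure D1:**
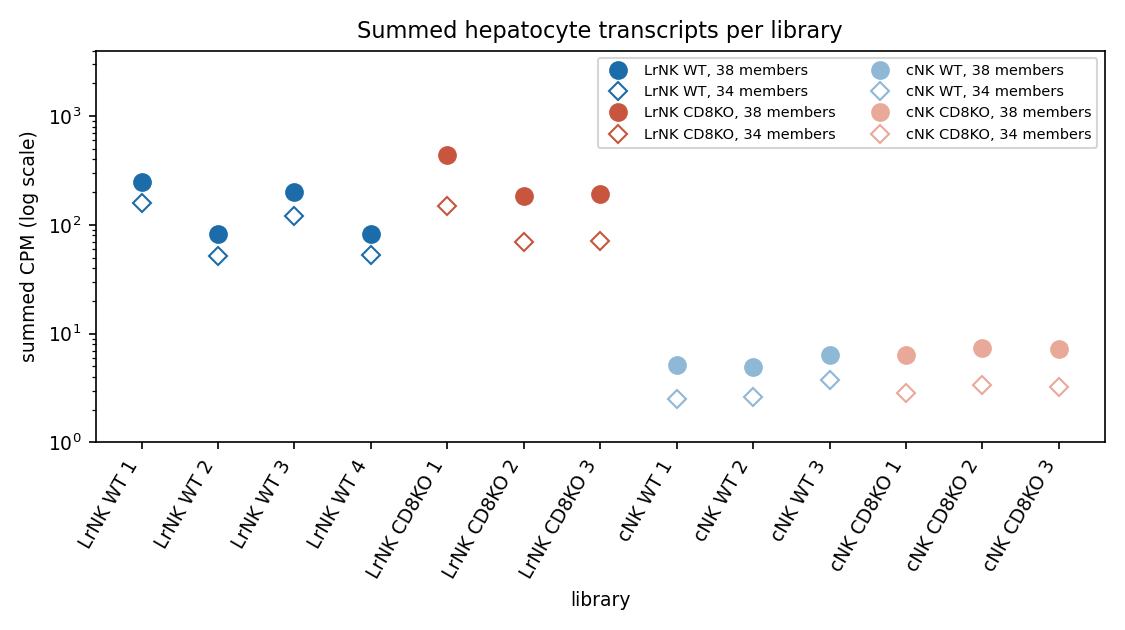
Summed CPM of the hepatocyte transcripts (vertical axis, log scale) in each of the 13 libraries (horizontal axis), as filled circles for all 38 members and open diamonds for the 34 members left without Hp, Arg1, Ass1 and Trf. LrNK libraries sit between 82.1 and 438.9 CPM and cNK libraries between 4.98 and 7.42 CPM. The open diamonds of LrNK CD8KO (69.9 to 149.0 CPM) lie within the range of those of LrNK WT (51.4 to 159.5).

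In LrNK WT against cNK WT, 22 of the 38 members were higher and 0 lower (edgeR quasi-likelihood test, adjusted p under 0.05), against 11.9% of all 19287 genes tested called higher and 13.4% called lower. In LrNK CD8KO against cNK CD8KO, 20 were higher and 0 lower, against backgrounds of 10.4% and 7.68%. The 2 comparisons share no samples, and 19 members were called higher in both, against 8.03% of all genes: Alb, Apoa1, Arg1, Ass1, Bhmt, Fabp1, Fga, Fgb, Gc, Hp, Hpd, Mup3, Pck1, Rbp4, Serpina1a, Serpina1b, Serpina3k, Tat and Ttr. Both come from 1 fit and share its estimate of the spread. That spread, beyond counting error, was 63.2% of the level, against 98.2% with LrNK fitted alone and 9.6% with cNK fitted alone. The tests by label within 1 cell type, given below, use the shared spread too. Of the 22, 17 were called in every setting tried and Apoa1, Apob, Fga, Fgg and Hpx were not. Of the 20, 16 were, and Apoa1, Fga, Fgb and Vtn were not. The median fitted log2 change of the members was 8.30 in WT and 8.59 in CD8KO, and 6.13 and 5.91 where members without a count in 1 group were set to a floor of 3 counts over that group. Over all genes the medians were -0.07 and -0.05. All 38 members passed the filter on low counts in the fit of all groups, but only 7 passed it in the cNK groups alone (Apoa2, Apoc1, Trf, Serpinc1, Ass1, Arg1 and Tdo2). With only the 2 groups of a comparison fitted, 20 of 27 members tested were higher and 0 lower in WT, against 10.9% and 9.83% of genes, and 30 of 33 were higher and 0 lower in CD8KO, against 15.4% and 11.6%. Of those 7, only Ass1 and Arg1 were called in the fit of all groups, higher in both comparisons. A member that passed through LrNK alone had to be higher there. The counts of members higher and lower, here and below, and the medians thus describe and do not support. The same holds for the fitted changes and adjusted p values against cNK of every member outside those 7.

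In cNK, 16 members had no count in any of the 6 libraries, and another 6 had 1 to 3 counts over those libraries. In LrNK, 24 members were detected in all 7 libraries. For 20 members every LrNK library was above every cNK library, against 9.62% of all genes. Counted by samples within a label, 22 members were without overlap higher and 0 lower in WT, against 14.8% and 30.2% of all genes, and 33 higher and 1 lower (Serpinc1) in CD8KO, against 22.1% and 36.6%. The number of members at 0 was 6, 2, 11 and 2 in LrNK WT libraries 1 to 4, 3, 0 and 0 in LrNK CD8KO libraries 1 to 3, and 22 to 26 in cNK. LrNK WT library 3, with the fewest detected genes of all, thus lacked 11 members while having the most Alb. Leaving out the 3 LrNK libraries with few detected genes gave 33 members called in WT and 34 in CD8KO, against 26.2% and 26.6% of all genes, with 1 LrNK sample left in each group and the spread taken from cNK.

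**Figure D2:**
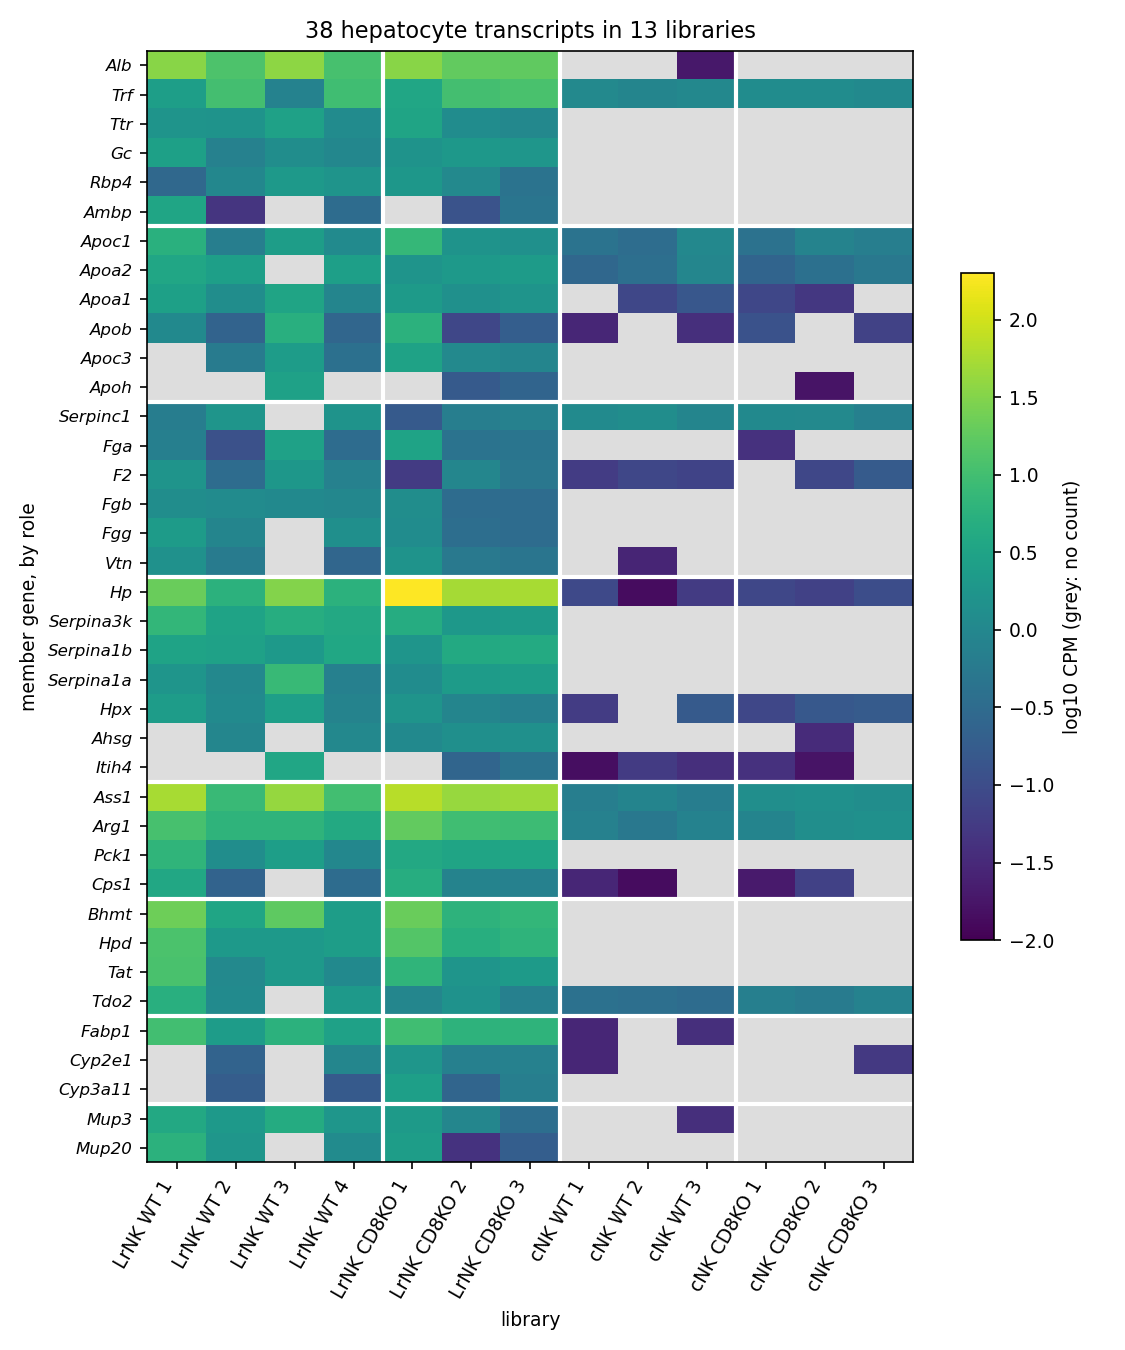
Level of each of the 38 members (rows, ordered by role and then by mean CPM, white lines between roles) in each of the 13 libraries (columns), coloured by log10 CPM, with grey for no count. The cNK columns are grey for 22 to 26 members each. Serpinc1, Trf, Apoc1, Apoa2, Tdo2, Hp, Ass1 and Arg1 are coloured in all cNK columns.

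Among the 6 carriers of plasma, Alb, Ttr (transthyretin, a thyroxine carrier), Gc (vitamin D binding protein) and Rbp4 (retinol binding protein) were higher in LrNK in both comparisons, while Trf (transferrin, the iron carrier) and Ambp (alpha-1-microglobulin and bikunin) were not called. Alb, at chr5:90460897-90476602 in GENCODE M21, was at 34.7, 12.8, 36.8 and 11.1 CPM in LrNK WT libraries 1 to 4 and 34.6, 18.3 and 17.7 CPM in LrNK CD8KO libraries 1 to 3. In cNK it had 1 count in 6 libraries, which is 0.0187 CPM in cNK WT library 3. The groups of LrNK and cNK did not overlap. The pooled ratio of Alb in WT was 4774 with a 95% counting interval of 856.3 to 188600, and in CD8KO Alb was at least 1256-fold higher than the floor of 3 counts over the cNK group. Its fitted log2 change was 11.92 ± 0.86 (SE) in WT (adjusted p = 3.4e-05) and 13.63 ± 1.00 in CD8KO (adjusted p = 4.2e-05). Alb passed the filter through LrNK alone, so the direction of both was set in advance. Without a count in cNK CD8KO, the size of the second depends on the prior count. Ttr had 36 to 115 counts in every LrNK library and none in cNK, at least 122.3-fold higher in WT and at least 95.1-fold in CD8KO.

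Trf followed another order. It was at 2.54, 10.4, 0.820 and 9.74 CPM in LrNK WT libraries 1 to 4, at 3.56, 10.5 and 11.9 CPM in LrNK CD8KO libraries 1 to 3, and at 0.908 to 1.26 CPM in cNK. Trf was thus lowest in the 3 LrNK libraries where Alb was highest, and LrNK WT library 3 lay below the cNK range. Its log2 change was 2.27 ± 0.85 in WT (adjusted p = 0.076) and 2.75 ± 0.91 in CD8KO (adjusted p = 0.062). With only the 2 groups compared fitted, its edgeR adjusted p was 0.16 in WT and 0.019 in CD8KO. In a count of windows of 50 bases, 79.8% of its transcript was shared with the annotated gene Gm20425, so reads could be split between them. Ambp, with no count in cNK, was 0 in LrNK WT library 3 and LrNK CD8KO library 1 and 0.047 to 3.41 CPM in the other LrNK libraries.

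Of the 6 apolipoproteins, the protein parts of lipoprotein particles, Apoa1 was higher in both comparisons and Apob in WT, and the test of whether the label acted differently in LrNK and cNK called neither. Apoa1, the main protein of HDL, was at 0.916 to 3.28 CPM in the 7 LrNK libraries and 0 to 0.149 in cNK. Apob, which forms VLDL and LDL, ranged from 0.0839 to 5.76 CPM in LrNK, with the 3 libraries of few detected genes holding its 3 highest values. Apoc1, an inhibitor of lipoprotein uptake, was at 5.31, 0.698, 2.51 and 1.15 CPM in LrNK WT libraries 1 to 4, 7.27, 1.59 and 1.44 in LrNK CD8KO libraries 1 to 3, and 0.344 to 1.01 in cNK. Apoa2, the second protein of HDL, was at 3.57, 2.63, 0 and 2.68 CPM in LrNK WT, 1.67, 2.08 and 2.27 in LrNK CD8KO, and 0.247 to 0.953 in cNK. Apoc1 overlapped cNK in WT through library 2, and Apoa2 through library 3. Neither was called in the fit of all groups (adjusted p = 0.078 and 0.33 in WT, 0.063 and 0.32 in CD8KO). With only the 2 groups compared fitted, both were called higher in CD8KO (edgeR adjusted p = 0.042 and 0.036). Neither was in WT (0.13 and 0.47). Apoc3 had no count in cNK and 0 to 2.95 CPM in LrNK.

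Apoh (beta-2-glycoprotein I, which binds phospholipid) and Itih4 (an inter-alpha-trypsin inhibitor heavy chain) were nearly the readout of a single library. Apoh had 113 counts (2.89 CPM) in LrNK WT library 3, 0 in the other 3 LrNK WT libraries, and 0, 8 and 10 counts in LrNK CD8KO libraries 1 to 3. In cNK it had 1 count. Itih4 had 137 counts (3.51 CPM) in LrNK WT library 3, 0 in the other 3, and 0, 12 and 18 in LrNK CD8KO libraries 1 to 3. In cNK it had 0 to 4 counts a library. Neither was called in a comparison.

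The next 6 members are coagulation or matrix proteins of plasma: the 3 fibrinogen chains, prothrombin (F2), antithrombin (Serpinc1) and vitronectin (Vtn). Fga and Fgb were called in both comparisons, Fgg in WT and Vtn in CD8KO. Fga was at 0.705, 0.116, 2.87 and 0.327 CPM in LrNK WT libraries 1 to 4 and 3.09, 0.441 and 0.479 in LrNK CD8KO libraries 1 to 3, with 2 counts in cNK, both in CD8KO library 1. The 3 chains enter the assembled protein in equal numbers, but their RNA proportions varied between libraries: LrNK WT library 3 had 112 counts of Fga, 43 of Fgb and 0 of Fgg, and LrNK WT library 1 had 30, 54 and 96. F2 was above cNK in every LrNK WT library (0.326 to 1.92 CPM against 0.0583 to 0.0825) and overlapped cNK in LrNK CD8KO. It was not called in either in the fit of all groups (adjusted p = 0.054 and 0.32). With only the 2 groups compared fitted, its edgeR adjusted p was 0.027 in WT and 0.34 in CD8KO.

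Serpinc1 had the only negative fitted change of the 38 in both comparisons. It was at 0.658, 1.72, 0 and 1.64 CPM in LrNK WT libraries 1 to 4, at 0.167, 0.693 and 0.766 in LrNK CD8KO libraries 1 to 3, at 1.14, 1.29 and 0.916 in cNK WT libraries 1 to 3, and at 1.09, 1.07 and 0.751 in cNK CD8KO libraries 1 to 3. LrNK and cNK overlapped in WT. Its log2 change was -0.41 ± 1.30 in WT (adjusted p = 0.86) and -0.98 ± 1.501 in CD8KO (adjusted p = 0.73). In WT the direction turned to 0.69 without the libraries of few detected genes and to 0.16 without LrNK WT replicate 3. Across the 11 samples its CPM had a Spearman correlation of -0.77 with the sum of the other members, the lowest of the 38, as a description of samples that share depth and composition.

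Of the 7 protease inhibitors and acute-phase proteins, Hp, Serpina1a, Serpina1b and Serpina3k were higher in LrNK in both comparisons and Hpx (hemopexin, a heme scavenger) in WT. Hp encodes haptoglobin, which binds free hemoglobin, and is also made by granulocytes. It was at 21.1, 5.86, 31.8 and 5.76 CPM in LrNK WT libraries 1 to 4, at 199, 52.1 and 55.1 in LrNK CD8KO libraries 1 to 3, and at 0.0138 to 0.105 in cNK. Every LrNK CD8KO library was above every LrNK WT library, and both were above cNK. The log2 change against cNK was 8.54 ± 0.88 in WT (adjusted p = 7.7e-05) and 10.59 ± 0.91 in CD8KO (adjusted p = 2.9e-05). Serpina3k, a mouse relative of alpha-1-antichymotrypsin, was at 7.12, 3.07, 4.71 and 3.92 CPM in LrNK WT libraries 1 to 4 and 4.54, 1.99 and 2.23 in LrNK CD8KO libraries 1 to 3. With no count in cNK it was at least 309.5-fold higher in WT and at least 154.5-fold in CD8KO. Ahsg (fetuin-A, an inhibitor of calcification) was at 0 in LrNK WT libraries 1 and 3 and at 0.954 to 1.44 CPM in the other 5 LrNK libraries.

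Serpina1a and Serpina1b, 2 of the mouse alpha-1-antitrypsin copies, had no count in cNK. Serpina1a was at 0.752 to 8.02 CPM in LrNK and Serpina1b at 1.78 to 4.24 CPM. Serpina1a held 78.8% of the pair's counts in LrNK WT library 3 and 16.9 to 40.7% in the other 6 LrNK libraries. These copies share sequence, 67.4% of the windows of Serpina1a and 35.8% of those of Serpina1b being found in other genes, so the split between them is uncertain. A list of 21 further family genes (3 Serpina1, 3 Serpina3 and 15 Mup) summed to 10.6 to 30.9 CPM in LrNK WT, 6.59 to 11.8 in LrNK CD8KO and 0 to 0.0275 in cNK. Their sum was lowest in LrNK CD8KO libraries 2 and 3, where Serpina1b was highest. Mup7, which followed Serpina1e at the head of the list, was at 1.44 to 5.41 CPM in LrNK WT, 0.622 to 2.14 in LrNK CD8KO and 0 in cNK.

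Of the urea cycle and gluconeogenesis genes, Ass1, Arg1 and Pck1 were higher in LrNK in both comparisons and Cps1 in neither. Ass1 (argininosuccinate synthase, which joins citrulline and aspartate) was at 54.5, 8.12, 41.9 and 9.81 CPM in LrNK WT libraries 1 to 4 and 68.9, 42.6 and 46.4 in LrNK CD8KO libraries 1 to 3. In cNK it was at 0.684, 0.880 and 0.673 CPM in WT and 1.34, 1.42 and 1.29 in CD8KO. Ass1 thus had counts in all 13 libraries, with LrNK above cNK throughout and a log2 change of 5.58 ± 0.58 in WT (adjusted p = 9.1e-05) and 5.49 ± 0.59 in CD8KO (adjusted p = 1.3e-04). Of its windows 55.3% were shared with Gm5424. Arg1 (arginase, the last step of the cycle) was at 11.3, 6.24, 6.38 and 4.15 CPM in LrNK WT, 18.4, 9.76 and 9.02 in LrNK CD8KO, and, in cNK, 0.536 to 0.803 for WT and 0.885 to 1.47 for CD8KO. Its log2 change was 3.50 ± 0.46 in WT (adjusted p = 4.0e-04) and 3.60 ± 0.48 in CD8KO (adjusted p = 5.0e-04). Pck1 had no count in cNK and 0.981 to 6.56 CPM in LrNK. Cps1 (the mitochondrial enzyme that starts the cycle) was at 3.74, 0.233, 0 and 0.327 CPM in LrNK WT and 4.73, 0.839 and 0.766 in LrNK CD8KO.

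Bhmt, Tat and Hpd, which break down betaine, tyrosine and its keto acid, had no count in cNK and were called in both comparisons. Bhmt was at 22.2, 3.37, 17.1 and 2.52 CPM in LrNK WT libraries 1 to 4 and 20.9, 6.15 and 6.97 in LrNK CD8KO libraries 1 to 3, at least 768.4-fold higher than cNK in WT and at least 586.7-fold in CD8KO. Hpd was at 12.2, 2.02, 2.02 and 2.45 CPM in LrNK WT and 14.3, 4.91 and 6.15 in LrNK CD8KO. Tat was at 1.07 to 11.9 CPM in LrNK. Tdo2 (tryptophan dioxygenase) was counted in all 6 cNK libraries, at 0.336 to 0.408 CPM in WT and 0.620 to 0.804 in CD8KO. In LrNK it was at 5.24, 1.16, 0 and 2.03 CPM in WT and 0.947, 1.57 and 0.742 in CD8KO, and it was not called (log2 change 2.64 ± 1.41 and 0.69 ± 1.47, adjusted p = 0.21 and 0.82).

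Fabp1 was at 9.82, 2.37, 5.81 and 2.91 CPM in LrNK WT libraries 1 to 4, at 9.55, 6.00 and 6.37 in LrNK CD8KO libraries 1 to 3, and had 4 counts in cNK, all in WT. It was called in both comparisons (adjusted p = 0.0010 and 5.3e-04). The cytochromes were lower per kilobase of exon, at a mean of 0.301 CPM per kb for Cyp2e1 and 0.113 for Cyp3a11 over the LrNK libraries, against 11.1 for Fabp1. Cyp2e1, which oxidises ethanol, was at 0, 0.233, 0 and 0.948 CPM in LrNK WT and 1.84, 0.755 and 0.766 in LrNK CD8KO, with 5 counts in cNK. Cyp3a11, a main drug-oxidising enzyme, was at 0, 0.186, 0 and 0.164 CPM in LrNK WT and 2.73, 0.252 and 0.694 in LrNK CD8KO, with none in cNK. Both were thus 0 in the 2 LrNK WT libraries with few detected genes, neither was called against cNK, and both had the LrNK CD8KO samples above the LrNK WT samples, although LrNK WT library 4, before it was summed with library 2, was above 2 LrNK CD8KO libraries in Cyp2e1.

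The major urinary proteins carry pheromones and are made by the liver, in larger amounts in male mice. Mup3 was at 3.996, 2.12, 4.35 and 1.80 CPM in LrNK WT libraries 1 to 4 and 2.17, 0.944 and 0.359 in LrNK CD8KO libraries 1 to 3, with 2 counts in cNK, and was called in both comparisons (adjusted p = 0.0061 and 0.0066). Mup20 (darcin) was at 5.76, 1.81, 0 and 1.18 CPM in LrNK WT and 2.48, 0.0420 and 0.192 in LrNK CD8KO, had none in cNK and was not called. Of the windows of Mup20 50.5% were shared with other genes (48% with Mup-ps19), and of those of Mup3 15.6%. The level of a single Mup gene is thus uncertain. Xist, the transcript of the inactive X chromosome in females, was at 0.282 to 1.90 CPM in LrNK WT and 94.9, 135.5 and 131.9 CPM in LrNK CD8KO libraries 1 to 3. Sult2a1, which female mouse liver transcribes more, was at 3.93, 0.693 and 0.479 CPM in LrNK CD8KO libraries 1 to 3 and at 0 to 0.0470 CPM in the 4 LrNK WT libraries. In cNK, Xist was at 0.0291 to 0.299 CPM in WT and at 0.247, 265 and 815 CPM in CD8KO libraries 1 to 3. Xist thus ran with the label in LrNK, where label and sex cannot be told apart, and split the CD8KO libraries in cNK. Neither list of sex-biased hepatocyte genes had a call by label in LrNK (Sult2a1 adjusted p = 0.20). Cyp7b1 and Cyp4a12a, which male mouse liver transcribes more, were highest in LrNK CD8KO library 1, at 2.34 and 1.39 CPM against at most 0.186 and 0.0470 in LrNK WT.

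**Figure D3:**
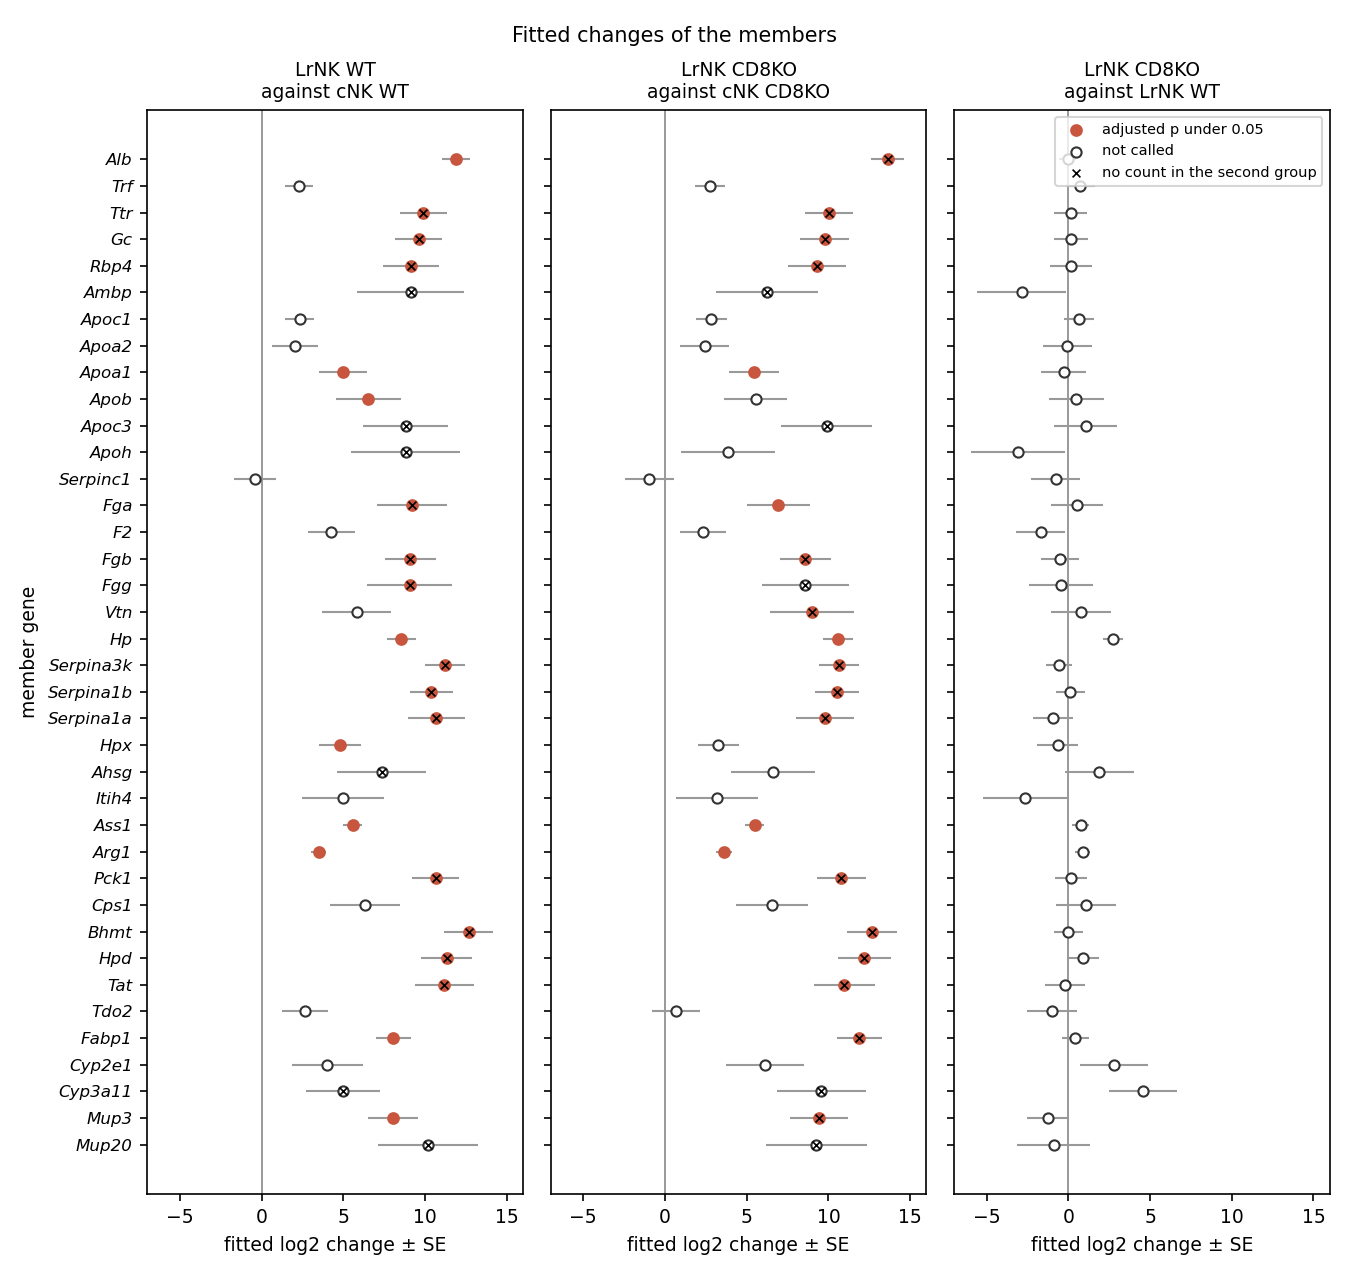
Fitted log2 change with an approximate standard error (horizontal axis) for each of the 38 members (vertical axis). The panels are LrNK WT against cNK WT, LrNK CD8KO against cNK CD8KO, and LrNK CD8KO against LrNK WT. The error is the size of the change divided by the square root of the F value of the test. Filled points passed an adjusted p of 0.05, and crosses mark members without a count in the second group, whose fitted size depends on the prior count. The first 2 panels hold 22 and 20 filled points, all to the right of 0, and the third holds 0.

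Levels of different members were compared per kilobase of exon. By mean CPM per kb over the 7 LrNK libraries the order began with Hp (33.0), Ass1 (16.1), Fabp1 (11.1), Alb (10.1), Arg1 (4.18), Apoa2 (3.97) and Apoc1 (3.83) and ended with Serpinc1 (0.0943). The head of the order was not stable between libraries. Hp per kb ranged from 3.58 to 124 and Ass1 from 3.36 to 28.5, and Alb (4.75 to 15.7) and Fabp1 (4.29 to 17.8) overlapped both. In LrNK WT libraries 2 and 4, Alb was above Ass1 and Hp per kb, and in the 3 LrNK CD8KO libraries Hp was highest. Between LrNK libraries the Spearman correlation over the 38 members was 0.918 and 0.946 for the 2 closely agreeing pairs and 0.283 to 0.771 for all other pairs.

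Between labels, no member was called in either cell type. In LrNK CD8KO against LrNK WT, 0 of 38 were higher and 0 lower by edgeR, against 0.539% and 0.176% of all genes, with 1 member at an unadjusted p under 0.05, against 14.6% of all genes in either direction. DESeq2 called 1 higher and 0 lower, against 3.99% and 1.95% of all genes, and limma voom 0. That member was Hp, at 126.3 ± 103.0 CPM (SD, n = 2) against 19.6 ± 13.1 (SD, n = 3), a log2 change of 2.74 ± 0.62 (adjusted p = 0.087). Over the other settings its adjusted p ranged from 1.5e-06 to 1, and it passed the threshold in 9, among them DESeq2 (adjusted p = 0.0030), no filter (0.012), the 13 libraries kept separate (0.026), the replicate block (0.0047), and the leaving out of LrNK WT replicate 2, LrNK WT replicate 3 or LrNK CD8KO replicate 2 (0.028, 0.043 and 0.022). It did not pass with the LrNK groups fitted alone (adjusted p = 1), where 0 of 37 members and 0% of genes were called in either direction. Ass1 had a log2 change of 0.75 ± 0.52 (adjusted p = 0.59) and passed at 2.35 without the libraries of few detected genes, where it was at 8.12 and 9.81 CPM against 42.6 and 46.4. Alb had a log2 change of -0.04 ± 0.52 (adjusted p = 0.997), and its direction turned in other settings. The median over the members was 0.13, against 0.06 over all genes. Hp, Ahsg, Cyp2e1 and Cyp3a11 had every LrNK CD8KO sample above every LrNK WT sample, against 9.39% of all genes, and 0 had every sample below, against 7.34%.

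In cNK CD8KO against cNK WT, 0 of 38 were higher and 0 lower by edgeR, against 0.00518% and 0% of all genes, and DESeq2 and limma voom called 0. The 1 member at an unadjusted p under 0.05, against 0.705% of all genes, was Fabp1, which had 4 counts in WT and 0 in CD8KO. Ass1, Arg1, Trf and Tdo2 had every cNK CD8KO library above every cNK WT library, against 9.06% of all genes, and 0 had every library below, against 7.72%. With cNK fitted alone 0 of the 7 members tested were called, against 0.499% of genes higher and 0.812% lower. Ass1 was at 1.35 ± 0.07 against 0.746 ± 0.117 CPM and Arg1 at 1.23 ± 0.30 against 0.704 ± 0.146 (SD, n = 3 each). Their adjusted p was 1 in the fit of all groups, and 0.18 and 0.26 with cNK fitted alone (edgeR). The fit of all groups used a spread of 63.2%, against 9.6% with cNK fitted alone. Its p values by label in cNK thus do not measure the spread of cNK and show no absence of a difference. In the test of whether the label acted differently in LrNK and cNK, 0 of 38 were called by edgeR, DESeq2 or limma voom, against 0.00518% higher and 0.0363% lower of all genes, with 1 at an unadjusted p under 0.05 (8.44% of all genes), again Fabp1 (adjusted p = 0.57).

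Markers of other cells were counted in the same libraries, and their part in the results above was not tested. The 15 genes of neutrophils and monocytes summed to 645 to 3993 CPM in LrNK WT, 2350 to 8496 in LrNK CD8KO. In cNK libraries the sum was 625 to 728 CPM for WT and 751 to 846 CPM for CD8KO. Of the 15, 8 were detected in LrNK WT and all 15 in LrNK CD8KO. Lyz2 (lysozyme of myeloid cells) led the list, at 1844, 520, 3532 and 520 CPM in LrNK WT libraries 1 to 4, at 7411, 1942 and 1986 in LrNK CD8KO libraries 1 to 3, and at 12.02 to 18.9 in cNK. Ccr2, a chemokine receptor and the next gene of the list, made up most of the cNK sum, at 610 to 825 CPM there, 90.1 to 380 in LrNK WT and 217 to 805 in LrNK CD8KO (log2 change -1.27 in WT, adjusted p = 0.084). Against cNK, 5 of the 12 genes tested were higher in WT and 6 in CD8KO, with 0 lower. Of all genes, 11.9% were called higher and 13.4% lower in WT, and 10.4% and 7.68% in CD8KO. By label in LrNK, 1 of the 12 was higher and 0 lower, against 0.539% and 0.176% of all genes. It was Cd14, at a mean of 103.4 CPM in LrNK CD8KO and 34.3 in LrNK WT (log2 change 1.64, edgeR adjusted p = 0.048). That call rests on the spread shared with cNK: with the LrNK groups fitted alone, 0% of genes were called by label. The granulocyte gene S100a8 was at 0 to 0.940 CPM in LrNK WT, 1.73 to 6.23 in LrNK CD8KO and 0 to 0.280 in cNK. Lcn2, another, had no count in LrNK WT and was at 1.22 to 2.56 CPM in LrNK CD8KO and 0 to 0.035 in cNK. Neither was called by label in LrNK (edgeR adjusted p = 0.44 and 0.12). Hp per 100 CPM of Lyz2 was 0.901 to 1.14 in LrNK WT and 2.69 to 2.77 in LrNK CD8KO, a ratio chosen after its values were seen. Alb per 100 CPM of Lyz2 lay the other way, at 1.04 to 2.45 in LrNK WT and 0.466 to 0.941 in LrNK CD8KO, again without overlap. The Hp ratio varied with the marker. Per 100 CPM of Csf3r it was 50.2 to 62.9 in LrNK WT and 82.9 to 145.3 in LrNK CD8KO. Per 100 CPM of S100a9 the labels overlapped, at 511 to 6300 and 862.5 to 2919. Per 100 CPM of S100a8 it was 2240, 2520 and 2933 in LrNK WT libraries 1, 2 and 4. In LrNK CD8KO libraries 1 to 3 that ratio was 11530, 836 and 932. The Alb level itself overlapped between the labels: LrNK CD8KO library 1 had the highest Lyz2 of all and an Alb of 34.6 CPM, beside 34.7 and 36.8 in LrNK WT libraries 1 and 3.

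**Figure D4:**
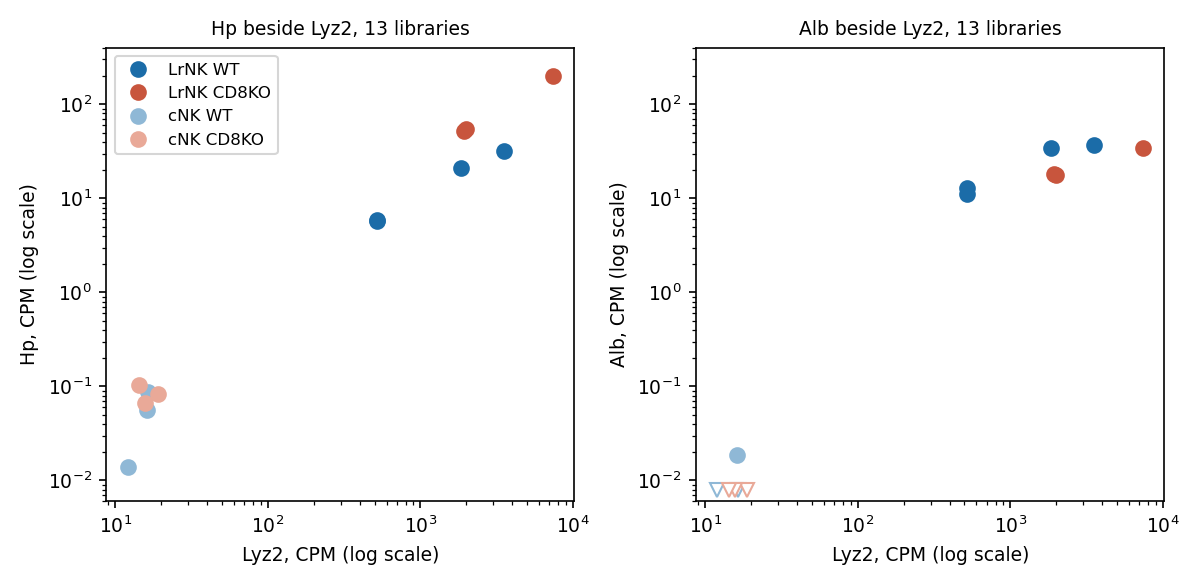
Hp (left) and Alb (right) in CPM against Lyz2 in CPM, all on log scales, 1 point for each of the 13 libraries, coloured by group, with open triangles at the foot for libraries without a count of Alb. Hp lies on a higher line in LrNK CD8KO (2.69 to 2.77 per 100 CPM of Lyz2) than in LrNK WT (0.901 to 1.14). Alb lies between 11.1 and 36.8 CPM in all LrNK libraries.

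Other liver cells were also read in LrNK. Clec4f, which marks Kupffer cells, the macrophages of the liver, was at 20.8, 2.26, 15.2 and 3.73 CPM in LrNK WT libraries 1 to 4, 21.0, 3.46 and 3.64 in LrNK CD8KO libraries 1 to 3, and 0 in cNK. The 14 Kupffer genes together were at 266 to 967 CPM in LrNK WT, 892 to 1656 in LrNK CD8KO and 293 to 464 in cNK, and all 14 were detected in LrNK and 13 in each cNK group. The list did not move as one: in LrNK WT against cNK WT 3 were higher (Clec4f, Csf1r and Id3) and 2 lower, with a median log2 change of 0.33, and in CD8KO 4 were higher and 1 lower. The shares of all genes called higher and lower were 11.9% and 13.4% in WT and 10.4% and 7.68% in CD8KO. Slc40a1 was at 6.60 against 78.5 CPM (mean of samples in WT, adjusted p = 0.0034) and Marco at 0.166 against 3.44 (adjusted p = 0.036). Csf1r, the receptor of macrophage growth factor, led the list at 110 to 559 CPM in LrNK WT, 484 to 1118 in LrNK CD8KO and 58.8 to 92.3 in cNK, followed by C1qb, a complement subunit, at 33.0 to 85.1, 67.6 to 105 and 35.1 to 55.7. The 7 erythroid genes summed to 151 to 1159 CPM in LrNK WT, 328 to 3326 in LrNK CD8KO and 3.10 to 5.66 in cNK. They did not follow the members from library to library: Hba-a1 was at 1446 and 1465 CPM in LrNK CD8KO libraries 2 and 3 and 138.8 in library 1, where the members' sum was highest. Hbb-bs was at 1248 and 1290 CPM in the same 2 libraries and 122.6 in library 1.

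A further 60 hepatocyte genes outside the 38 were listed. Of these, 41 were tested, and 15 were higher and 0 lower in LrNK WT against cNK WT, 11 and 0 in CD8KO, and 0 in the label comparisons. For this paragraph's lists, the shares of all genes called higher and lower were 11.9% and 13.4% in WT and 10.4% and 7.68% in CD8KO. By label they were 0.539% and 0.176% in LrNK and 0.00518% and 0% in cNK. A listed gene that passed the filter through LrNK alone had to be higher there. Hnf4a, a transcription factor of hepatocytes, was at 5.78, 0.372, 5.10 and 0.654 CPM in LrNK WT libraries 1 to 4, at 8.02, 1.34 and 1.56 in LrNK CD8KO libraries 1 to 3, and at 0 in cNK. Glul, which led the list and which most cells transcribe, was at 107.8 to 179.6 CPM in LrNK and 179.8 to 195.9 in cNK. C3 (complement C3, which macrophages also make) was at 30.0 to 508.9 CPM in LrNK and 4.21 to 8.37 in cNK. Among 11 periportal genes, 4 of them members (led by Ass1 and Arg1), 3 were higher in WT and 4 in CD8KO of 9 tested. Among 10 pericentral genes (1 a member, led by Glul and Oat), 1 of 5 tested was higher in each.

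The genes outside the 38 whose CPM ran most like the members' sum over the 11 samples were led by Ctss, Hpse, Emilin1 (Spearman 0.98 each), Txnrd1, Unc93b1, C3, Rara, Evi2a, Tmem268 and Rflnb (0.97 each), of 11013 genes with a mean of at least 1 CPM. They are the first 10 of 14 such genes at 0.97 or more, ties being ordered by mean CPM. Within the members, Arg1 ran most like the sum of the others (0.96), followed by Ass1 and Hpx (0.91 each). The lowest after Serpinc1 were Itih4 (-0.25), Apoh (0.35) and Cyp2e1 (0.37). These samples fall into LrNK and cNK, so each value mostly reads that split.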

How the data were processed

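The authors deposited 1 file of raw gene counts for each of the 13 libraries, made from total RNA with a TruSeq kit per the labels' protocols. HISAT2 2.1.0 and the build GRCm38 come from the submitters' processing notes. Which tool counted the reads, with which annotation and strand setting, is not given in the sources used here, so genes that overlap on either strand may share reads. Of 54532 identifiers, 54495 matched GENCODE M21, which gave symbols and coordinates. Groups came from the sample labels. CPM is a gene's count scaled to a library total of 1000000 gene counts.

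The test was edgeR 4.0.16 in R 4.3.3: TMM scaling, filterByExpr (minimum count 10, minimum total 15), all 4 groups in 1 fit, quasi-likelihood test, Benjamini-Hochberg adjustment over 19287 genes, called at an adjusted p under 0.05. It was checked on simulated counts. The SE given with a log2 change is the size of that change divided by the square root of the test's F value. It is an approximation and not a standard error estimated by the fit. Closely agreeing libraries were summed, which left 11 samples. Libraries with fewer than 16000 detected genes are called libraries with few detected genes. Where a group had no count, the ratio is a lower bound set by 3 counts over the group. Alternatives were another scaling, no filter, DESeq2 1.42.0, voom of limma 3.58.1 with sample weights, separate libraries, the replicate block, only the groups compared, libraries with few detected genes left out, and each sample left out. A fit that kept only those libraries of LrNK, and a sum without Hp, were added after seeing the data.

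The members, lists and tests were chosen with earlier results of these data known. Values in every library are given for the 2 members of each of 8 roles with the highest mean CPM, the 4 with the lowest Spearman correlation with the other members' sum, and the 4 also made by blood cells. The other lists were named by their 2 genes of highest mean CPM. Clec4f, Id3, Slc40a1, Marco, Hnf4a, Xist, Cyp7b1, Cyp4a12a, Cd8a, Itga1, Eomes, Tbx21, S100a8, S100a9, Lcn2, Csf3r, Cd14, Ctrb1 and Cel were named outside that rule. Motifs were searched in RefSeq promoters of GRCm38.p6.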

Additional observations from a re-analysis of the deposited data

How the results depend on the processing

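Against cNK, members called higher ranged over all settings from 17 to 33 in WT (17 to 28 as each sample was left out) and from 17 to 34 in CD8KO (17 to 29), with 0 lower in each, against 6.89 to 26.2% and 6.56 to 26.6% of all genes over the same settings. The 34 came without the LrNK libraries of few detected genes, where 1 sample was left in each LrNK group and was assumed to vary like cNK. In LrNK by label, 1 member was called with no filter, with DESeq2, with 13 separate libraries and with the replicate block (0.0570 to 3.99% of all genes), 2 without the libraries of few detected genes and 2 with only those (11.3% and 8.997% of all genes), and 0 to 1 as each sample was left out (0.0263 to 5.93%). Without those libraries 1 was called in cNK by label (Ass1, against 0.332% of all genes) and 2 in the difference (Hp and Ass1, against 9.03%). The cause was not tested. With the replicate block, 22 and 18 members were called against cNK (10.3% and 8.87% of all genes). The labels do not say what a number marks, and same-numbered samples correlated at 0.0143 to 0.0479 in cNK and at 0.299 and 0.492 in LrNK, where 2 CD8KO samples deviate by construction in opposite directions. Same-numbered LrNK and cNK samples correlated at -0.101 to 0.0553. Without the 4 members also made by blood cells, mean sums fell to 109.8 CPM in LrNK CD8KO, 2.97 in cNK WT and 3.15 in cNK CD8KO. For single members, 334 of 360 refitted changes kept direction and call, 18 passed only in the alternative and 8 turned: Serpinc1 in WT (0.69 without the libraries of few detected genes, and -1.73 to 0.16 as samples were left out) and Alb by label in LrNK (0.0057 with separate libraries, 0.35 with the replicate block, 0.60 without the libraries of few detected genes, and -0.52 to 0.31 as samples were left out). Depth sets the lowest readable level: 3 counts are 0.0413 to 0.0617 CPM in cNK and 0.0630 to 0.0981 in LrNK.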

Other observations

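The remaining lists of other cells gave the following sums, as values only, with calls against cNK for the lists of this paragraph. Of all genes, 11.9% were called higher and 13.4% lower in WT, and 10.4% and 7.68% in CD8KO. Cholangiocyte genes summed to 23.2 to 37.7 CPM in LrNK WT, 18.1 to 28.5 in LrNK CD8KO and 4.22 to 6.02 in cNK, and were led by Epcam (8.77 to 28.2 CPM in LrNK, 0.367 to 0.905 in cNK) and Muc1 (1.17 to 14.8 in LrNK, 2.90 to 3.49 in cNK). Of the 4 tested, 1 was higher and 0 lower in both WT and CD8KO. Sinusoidal endothelial genes summed to 133 to 259 CPM in LrNK WT, 235 to 421 in LrNK CD8KO and 184 to 205 in cNK. They were led by Fcgr2b and Pecam1, both counted in every library and neither called. Of the 12 tested, 7 were higher and 0 lower in WT, and 6 and 0 in CD8KO, with median log2 changes of 5.21 and 5.69. Stellate cell genes summed to 7.12 to 39.4 CPM in LrNK and 6.54 to 12.8 in cNK, led by Ecm1 and Col14a1. Of the 7 tested, 2 were higher and 1 lower in WT, and 1 and 0 in CD8KO. Pancreatic acinar genes, a control from outside the liver, summed to 7.20 to 26.5 CPM in LrNK and 5.62 to 8.18 in cNK. They were led by Cela1 and Prss2, neither of which was called. Of the 7 tested, 2 were higher and 0 lower in both WT and CD8KO, with median log2 changes of 3.40 and 5.30. These were Ctrb1, without a count in cNK, and Cel.

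B cell genes summed to 12.4 to 22.1 CPM in LrNK WT, 23.1 to 166 in LrNK CD8KO and 14.7 to 27.5 in cNK. Cd22 was at 2.02 to 5.84 CPM in LrNK WT, 10.3 to 19.4 in LrNK CD8KO and 9.06 to 13.6 in cNK. Cd79a was at 39.3 and 41.2 CPM in LrNK CD8KO libraries 2 and 3 and at 0.668 in library 1. Those libraries 2 and 3 also held the most Hba-a1, whereas library 1 held the most Hp, Ass1 and Lyz2. NK cell genes summed to 13240 to 16040 CPM in LrNK WT, 7523 to 9355 in LrNK CD8KO and 16790 to 18180 in cNK. Gzma (granzyme A) was at 3043 to 3825 CPM in LrNK WT and 909 to 1077 in LrNK CD8KO (edgeR adjusted p = 0.0029 by label). Il2rb, the next gene by level, was at 2826 to 3953 and 2441 to 3475 CPM (adjusted p = 0.81), and Tbx21 at 400.1 to 746.9 and 256.1 to 637.3. By label in LrNK, 3 of the 14 NK cell genes were lower and 0 higher, against 0.176% and 0.539% of all genes. These calls, Gzma among them, rest on the spread shared with cNK. With the LrNK groups fitted alone, 0% of genes were called by label.

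Of the 12 hepatocyte genes listed as higher in female liver, 6 were detected in LrNK CD8KO and 2 in LrNK WT. Of the 11 listed as higher in male liver, Mup20 among them, 10 were detected in LrNK WT and 8 in LrNK CD8KO. The leading genes of both lists, Cyp17a1 and C6, were higher in cNK, at 5.66 to 8.05 and 5.10 to 9.87 CPM, than in LrNK, at 0 to 0.611 and 0 to 0.947 CPM. In LrNK, Serpina1e, an alpha-1-antitrypsin copy outside the 38 members, was at 13.4, 5.07, 8.38 and 5.43 CPM in WT libraries 1 to 4 and 2.70, 2.75 and 3.23 in CD8KO libraries 1 to 3, without overlap. It had no count in cNK.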
